A study of Rattus norvegicus with 24 samples.

Results

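Complement genes were examined in INS-1E cells, a rat insulinoma line that makes insulin, as 6 members: C1r, C1s, C2, C3, Cfb and Serping1. They were chosen on their log2 intensity in these same arrays, where complement genes were seen to respond to the cytokines, so their levels and differences are given as a description, without a test. All probe sets annotated to these genes were taken, which gave 8 of the 31099 probe sets on the array. C1r, C1s, C3 and Serping1 had 1 probe set each. C2 and Cfb had no probe set of their own, and the other 4 probe sets are annotated to both genes, so no level below belongs to C2 alone or to Cfb alone.

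The series comprised 24 Affymetrix expression arrays in 8 groups of 3. Cells received either no cytokines or IL-1b at 10 ng/ml together with IFN-g at 50 ng/ml and TNF-a at 25 ng/ml, each combined with the vehicle DMSO or with the compound BRD0476 at 10 uM, for 6 or 12 h. Every group was the same cell line in the same kind of medium, and the question the design poses is what the cytokines change and how BRD0476 alters that change. The labels do not say whether the 3 arrays of a group came from separate cultures, so errors and p-values cover no more than the spread among the arrays at hand, which may be technical.

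The complement system is a set of secreted proteases and binding proteins that tags surfaces for removal and can end in a membrane pore. In the classical pathway, C1q binds a target, the protease C1r activates C1s, and C1s cleaves C4 and C2, whose fragments form an enzyme that cleaves C3, the protein on which all routes converge. Factor B, the product of Cfb, does in the alternative pathway what C2 does in the classical pathway, and the serpin C1 inhibitor, the product of Serping1, binds and inactivates C1r and C1s. Liver makes most of the circulating proteins, and many other cells make them when exposed to inflammatory cytokines.

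The promoter sequences available for the members were those of C1r and C3, taken from RefSeq on the GRCr8 assembly. Any part of these sequences in the responses was not tested. Each is the 250 bases before the annotated start, written 5′ to 3′ on the gene's strand, and the capitals mark matches to the C/EBP motif TTNNGNAA on either strand. C1r lies at chr4:159098763-159099012 on the plus strand and C3 at chr9:2201340-2201589 on the minus strand.
C1r: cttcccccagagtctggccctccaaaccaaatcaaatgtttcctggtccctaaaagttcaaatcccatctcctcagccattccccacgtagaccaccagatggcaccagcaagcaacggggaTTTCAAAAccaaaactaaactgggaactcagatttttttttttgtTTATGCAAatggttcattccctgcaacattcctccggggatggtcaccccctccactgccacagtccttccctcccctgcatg
C3: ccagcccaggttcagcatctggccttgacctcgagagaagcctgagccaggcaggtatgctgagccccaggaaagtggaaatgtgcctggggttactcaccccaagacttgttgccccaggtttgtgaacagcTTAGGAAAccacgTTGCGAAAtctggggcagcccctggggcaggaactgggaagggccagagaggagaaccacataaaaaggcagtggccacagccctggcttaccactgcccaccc
Counted back from the start, the C1r matches lie at -128 to -121 and at -83 to -76, and the C3 matches at -117 to -110 and at -104 to -97, the last of them on both strands. The C/EBP motif was added after these sequences had been seen, and 37.2% of all 33469 promoters hold at least 1 match in the same length. The interferon-gamma element GAS (TTCNNNGAA, in 7.67% of promoters), the interferon element ISRE (GAAANNGAAA, in 3.41%) and the kappa-B motif (GGGNNNNTCC, in 15.2%) had no match on either strand in either window. These are letter matches in a short window and say nothing on binding. Promoters of C1s, C2, Cfb and Serping1 were not used here. By gene order on GRCr8, C1r and C1s are next to each other, and so are C2 and Cfb.

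The arrays were alike in overall level. Array medians lay between 5.49 and 5.57 on the log2 scale, arrays of a group correlated with r between 0.992 and 0.998, and no pair of arrays held identical values. Values are log2 of the deposited intensity throughout, and the lower quartile of all values on this scale was 3.84. The 9 measured of 10 beta-cell markers had group means above the median of all values in every group, with Ins1 between 14.41 and 14.60 in single arrays. With cytokines, 8 of these 9 were called lower at 6 h and 5 at 12 h by limma at an adjusted p under 0.05. Of all 14217 genes, 3892 and 4257 were called lower. With BRD0476 added to the cytokines, 6 of the 9 were called higher at 6 h and 5 at 12 h, beside 3506 and 2323 of all genes. The part of these markers in the complement differences was not tested. Of 12 leukocyte and macrophage markers 10 were measured, and none of the 10 reached the median of all values (5.52) in any group. The defining leukocyte gene Ptprc lay between 3.43 and 3.95 and the macrophage gene Adgre1 between 2.62 and 3.09 in all arrays, near the low end of the scale. The summed linear intensity of the 10 was 146 to 167 in untreated and 167 to 175 in cytokine-treated DMSO arrays at 6 h, and Lyz2 was the 1 of 10 called, from 4.51 to 5.04. Of 8 fibroblast, 4 endothelial, 5 exocrine or ductal and 3 other islet markers measured, 1, 2, 1 and 1 were called with cytokines at 6 h. Of all genes 51.7% were called in that comparison. Pdgfra (6.58 to 4.96), Kdr (5.83 to 4.08) and Gcg (10.29 to 9.33) were lower. Pecam1 (3.07 to 3.39) and Krt19 (3.35 to 3.73) were higher, from under the lower quartile. Gcg, Thy1 (8.71), Pdgfra and Kdr stood above the median of all values in untreated DMSO cells at 6 h. The part of these markers was not tested either. In a bulk culture fewer cells of a type and less RNA per cell cannot be told apart.

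C1r, C1s, C3 and Serping1 stood far higher with cytokines than without. With BRD0476 the cytokine-treated levels of C1r, C1s and Serping1 were much lower, and that of C3 was lower by less at both times. Without BRD0476, the level with cytokines at 6 h was higher by 54.7-fold for C1r, 79.5-fold for C1s, 18.4-fold for C3 and 54.8-fold for Serping1 in linear intensity. With BRD0476 added to the cytokines the level at 6 h was lower by 45.8-fold for C1s, 11.0-fold for Serping1, 8.40-fold for C1r and 1.34-fold for C3. At 12 h it was lower by 41.9-fold for C1s, 9.48-fold for Serping1, 7.24-fold for C1r and 1.79-fold for C3. The probe sets shared by Cfb and C2 differed by less than 1 log2 unit in all of these comparisons.

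**Figure D1:**
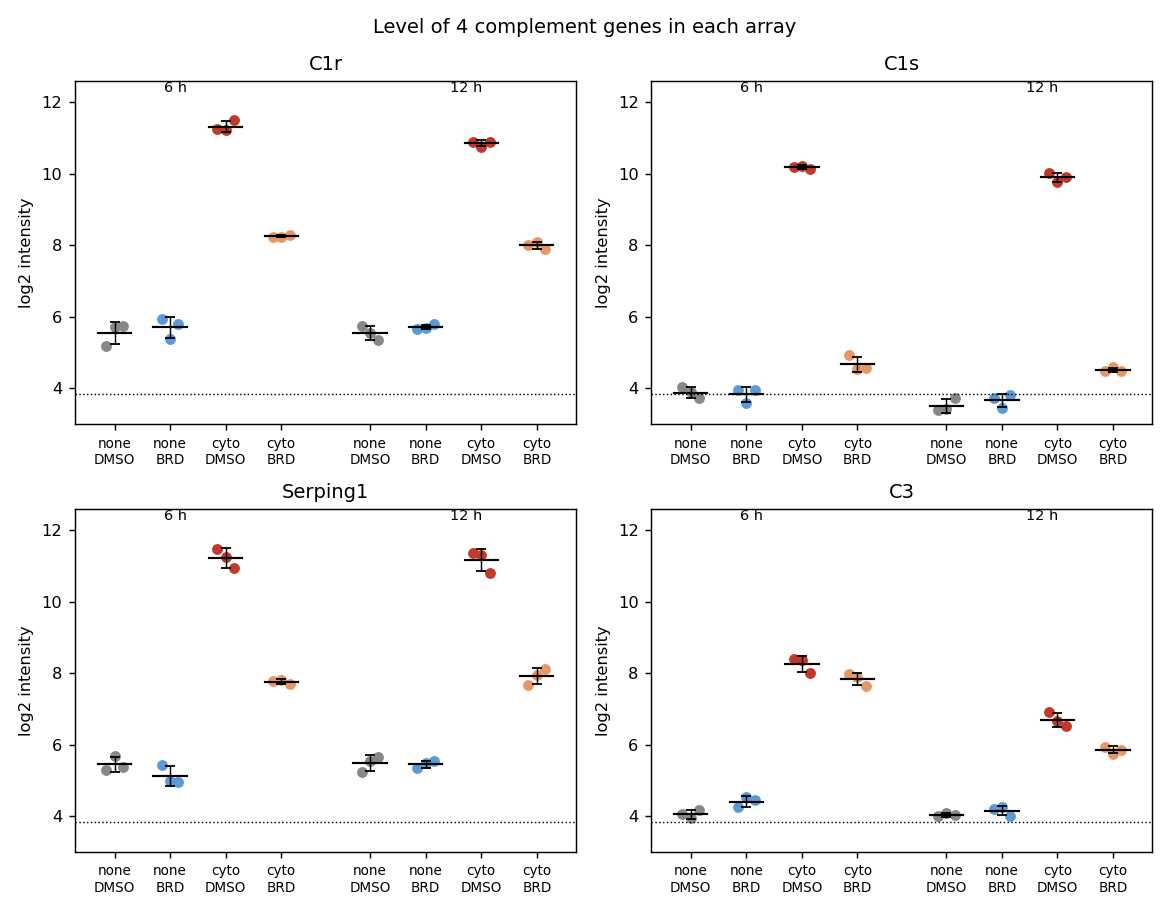
Levels of C1r, C1s, C3 and Serping1 as log2 intensity (vertical axis) in the 8 groups at 6 and 12 h. Points are single arrays, the black line is the group mean, bars are the SD (n = 3), and the dotted line is the lower quartile of all values (3.84). Within each time the arrays with cytokines and DMSO sit highest, and with BRD0476 C1s lies between 4.47 and 4.92, while C3 at 6 h stays between 7.64 and 7.96.

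C1r, the protease that starts the classical cascade, read 5.19, 5.73 and 5.74 in the 3 untreated DMSO arrays at 6 h. With cytokines the same probe set read 11.25, 11.23 and 11.50. With cytokines and BRD0476 it read 8.23, 8.24 and 8.29. The 3 sets of arrays were far apart, and the cytokine arrays with BRD0476 stood between the other groups. The log2 difference with cytokines was 5.77 ± 0.14 (SE, n = 3 against 3) at 6 h and 5.31 ± 0.14 at 12 h. Each SE comes from the limma fit, which pools the spread over all 8 groups. A probe set therefore has the same SE for any pair of groups. BRD0476 with cytokines changed C1r by -3.07 ± 0.14 at 6 h and -2.86 ± 0.14 at 12 h. By 12 h the C1r arrays read 5.75, 5.53 and 5.36 untreated, 10.90, 10.76 and 10.90 with cytokines, and 8.02, 8.09 and 7.90 with cytokines and BRD0476. All 4 cytokine groups of C1r were separate from one another, in the order DMSO at 6 h, DMSO at 12 h, BRD0476 at 6 h and BRD0476 at 12 h. The 4 groups without cytokines overlapped, with C1r means between 5.55 and 5.71.

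C1s, the protease that C1r activates, had the largest cytokine difference of the members and the largest difference with BRD0476. In untreated DMSO arrays at 6 h C1s read 4.04, 3.89 and 3.72, close to the lower quartile of all values. With cytokines C1s read 10.20, 10.23 and 10.15. With cytokines and BRD0476 it read 4.92, 4.54 and 4.57, so their mean of 4.68 lay within 1 log2 unit of the untreated mean of 3.88. The lowest of them still lay above every array without cytokines. The difference with cytokines was 6.31 ± 0.13 at 6 h and 6.40 ± 0.13 at 12 h, and BRD0476 changed the cytokine-treated level by -5.52 ± 0.13 and -5.39 ± 0.13. Arrays at 12 h read 3.38, 3.41 and 3.74 untreated, 10.04, 9.78 and 9.91 with cytokines, and 4.50, 4.59 and 4.47 with cytokines and BRD0476. The cytokine difference that remained under BRD0476 was 0.85 ± 0.13 at 6 h and 0.86 ± 0.13 at 12 h. The C1s arrays with cytokines and BRD0476 overlapped between 6 and 12 h. Because untreated C1s read close to the low end of the scale, where background limits an array, its fold changes depend on that low reading.

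Serping1, which encodes the inhibitor of both proteases, gave differences close in size to those of C1r. Untreated DMSO arrays at 6 h read 5.28, 5.69 and 5.37. With cytokines Serping1 read 11.48, 11.25 and 10.94. With cytokines and BRD0476 it read 7.77, 7.81 and 7.69, separate from both other groups. The cytokine difference was 5.78 ± 0.17 at 6 h and 5.68 ± 0.17 at 12 h. BRD0476 with cytokines changed Serping1 by -3.46 ± 0.17 at 6 h and by -3.24 ± 0.17 at 12 h. The 12 h arrays read 5.24, 5.53 and 5.66 untreated, 11.36, 11.30 and 10.81 with cytokines, and 7.68, 7.95 and 8.11 with both. Serping1 overlapped between 6 and 12 h in each of the cytokine conditions, so no change with time stood out from the spread. The proteases and their inhibitor were therefore all higher with cytokines and all lower again with BRD0476.

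C3, the central component cleaved by every route, differed from the other 3 genes in its time course and in its response to BRD0476. Untreated DMSO arrays at 6 h read 4.05, 3.93 and 4.17. With cytokines C3 read 8.40, 8.36 and 7.99. With cytokines and BRD0476 it read 7.96, 7.88 and 7.64, so the highest BRD0476 array lay just under the lowest DMSO array. The cytokine difference was 4.20 ± 0.12, and BRD0476 with cytokines changed C3 by -0.42 ± 0.12. Leaving out 1 array at a time moved the BRD0476 difference between -0.55 and -0.33. At 12 h C3 read 3.99, 4.09 and 4.02 untreated, 6.91, 6.65 and 6.51 with cytokines, and 5.94, 5.75 and 5.86 with both. The cytokine difference was 2.66 ± 0.12 and the BRD0476 difference -0.84 ± 0.12 at that time. From 6 to 12 h the cytokine-treated level of C3 was lower by 1.56 on the log2 scale with DMSO (difference -1.56 ± 0.12) and went from 7.83 to 5.85 with BRD0476 (-1.98 ± 0.12). None of the 4 cytokine groups of C3 overlapped with another. The same step from 6 to 12 h in DMSO was -0.47 ± 0.14 for C1r, -0.29 ± 0.13 for C1s and -0.07 ± 0.17 for Serping1. The members' differences between times were not compared by a test.

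The share of the cytokine difference that was left with BRD0476 set the members apart on a log2 scale. At 6 h it was 13.5% for C1s, 44.0% for C1r, 45.8% for Serping1 and 81.5% for C3. At 12 h it was 13.4%, 43.1%, 43.4% and 63.9%. Over all 281 genes with a cytokine difference of at least 2 at 6 h the median share was 44.1%, with quartiles of 27.6% and 65.4%, so C1r and Serping1 stood near the median, C1s under the lower and C3 above the upper quartile. At 12 h the median over 277 genes was 56.4%, with quartiles of 35.3% and 72.5%, and C3 lay inside that range. In linear intensity the rise left at 6 h was 0.993% for C1s, 9.98% for C1r, 7.65% for Serping1 and 71.3% for C3. At 12 h it was 1.07% for C1s, 11.3% for C1r, 8.76% for Serping1 and 45.5% for C3.

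**Figure D2:**
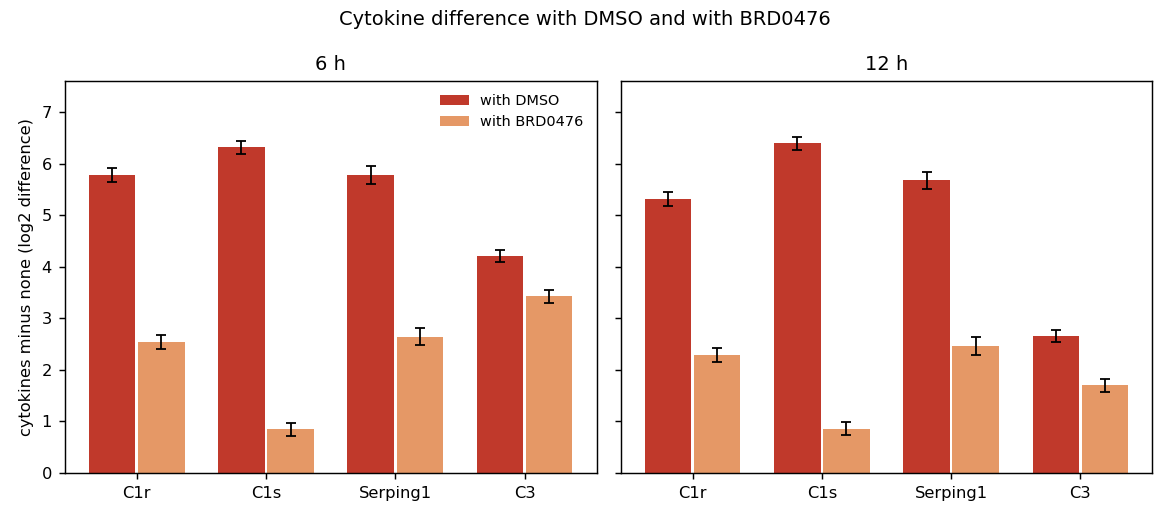
Difference made by the cytokines (log2, bars ± SE) for C1r, C1s, Serping1 and C3, in DMSO and in BRD0476, at 6 and 12 h (n = 3 against 3). The SE is that of the limma fit, with the spread pooled over all 8 groups. The C1s bar falls from 6.31 to 0.85 with BRD0476 at 6 h, whereas the C3 bar falls from 4.20 to 3.42.

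The probe sets annotated to both Cfb and C2 showed small differences. Probe set 1389470_at had the largest, with 3.41, 3.48 and 3.64 in untreated DMSO arrays at 6 h, 4.70, 4.21 and 4.34 with cytokines, and 3.81, 3.64 and 3.85 with cytokines and BRD0476. The cytokine arrays lay above the other 2 groups, by 0.91 ± 0.12 over untreated cells, and BRD0476 changed them by -0.65 ± 0.12. At 12 h the corresponding differences were 0.49 ± 0.12 and -0.68 ± 0.12. Probe set 1383391_a_at read 4.77, 4.34 and 4.67 untreated and 5.49, 5.19 and 5.13 with cytokines at 6 h, a difference of 0.68 ± 0.14. At 12 h its cytokine difference was 0.23 ± 0.14 and the groups overlapped. Probe set 1383392_at, made from the same target sequence as 1383391_a_at, gave 0.35 ± 0.14 at 6 h, with overlap, and 0.30 ± 0.14 at 12 h, without. Probe set 1393219_at gave 0.14 ± 0.15 and 0.26 ± 0.15, with overlap at both times. BRD0476 with cytokines changed 1383391_a_at by -0.62 ± 0.14 at 6 h, without overlap, and by -0.33 ± 0.14 at 12 h, with overlap. It changed 1383392_at by -0.36 ± 0.14 at 6 h, with overlap, and by -0.31 ± 0.14 at 12 h, without. For 1393219_at the differences were -0.26 ± 0.15 and -0.21 ± 0.15, with overlap at both times. The first cytokine array with DMSO at 6 h was the highest of its 3 on all 4 shared probe sets. Over the 8 groups the means of these probe sets spanned 0.27 to 0.91, and 1389470_at and 1393219_at lay near the lower quartile of all values, where an array gives little room to read a fall.

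**Figure D3:**
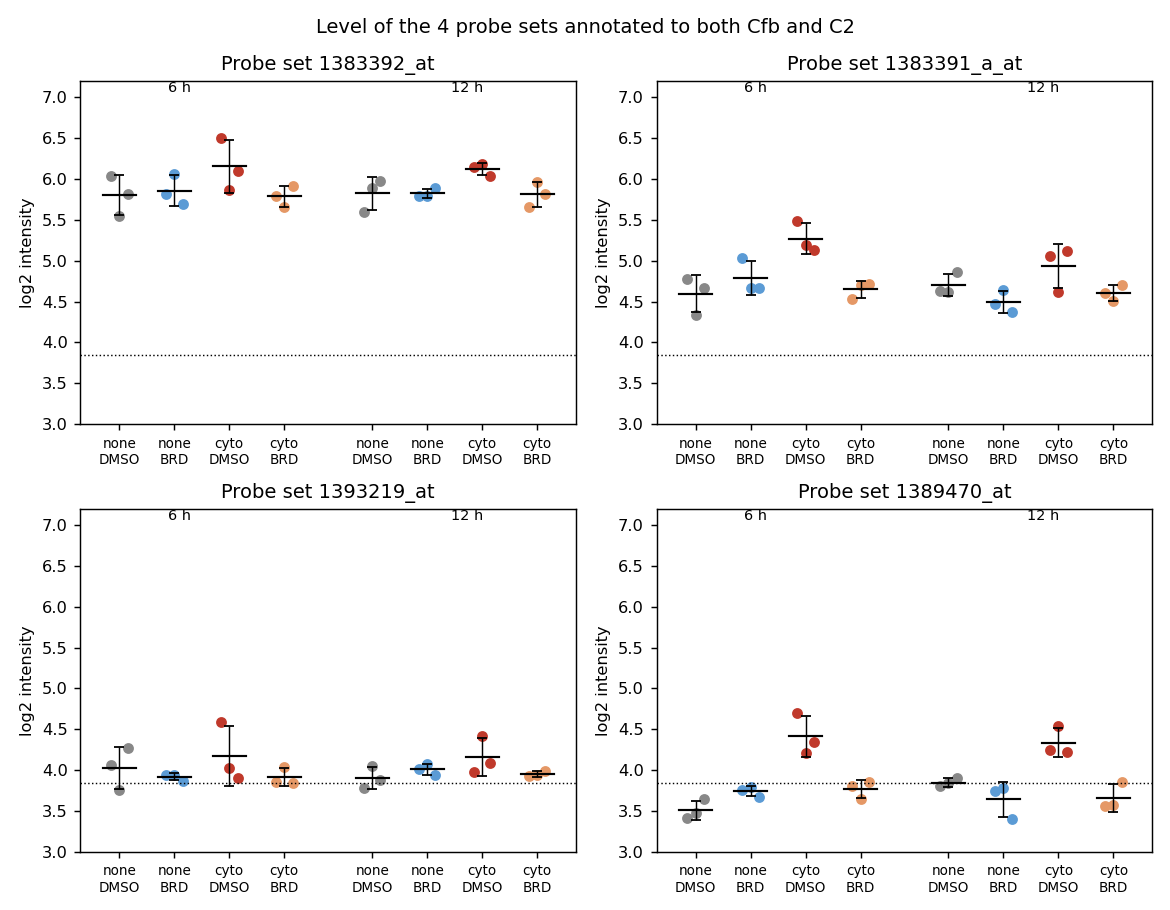
Level (log2 intensity, vertical axis) of the 4 probe sets annotated to both Cfb and C2 in the 8 groups. Points are single arrays, lines are means, bars are the SD (n = 3) and the dotted line is the lower quartile of all values (3.84). Probe set 1389470_at stands highest in the cytokine DMSO groups at 4.42 and 4.34, and all groups of 1393219_at lie between 3.90 and 4.17.

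Over the 8 member probe sets, 6 had all 3 cytokine arrays above all 3 untreated arrays at 6 h in DMSO, as did 19.9% of all probe sets, and 6 did so at 12 h (16.9% of all). With cytokines, 6 had all 3 BRD0476 arrays below all 3 DMSO arrays at 6 h (18.7% of all) and 6 at 12 h (12.5%). Under BRD0476, the 4 probe sets of C1r, C1s, C3 and Serping1 still had all cytokine arrays above those without at both times (13.3% and 12.0% of all). From 6 to 12 h in cytokines and DMSO, 4 had all arrays lower (18.5% of all). These counts describe genes that were chosen for their cytokine response and say nothing of the list. The median difference over the 8 was 2.55 at 6 h and 1.57 at 12 h for the cytokines, against -0.01 and -0.02 over all probe sets, and -0.63 and -0.76 for BRD0476 with cytokines, against 0.00 and 0.02. Ranked by their rise with cytokines among 31042 probe sets at 6 h, C1s stood at place 28, Serping1 at 38, C1r at 39 and C3 at 108. Ranked by how much lower they were with BRD0476 and cytokines at 6 h, C1s stood at place 4, Serping1 at 29, C1r at 41 and C3 at 3352. At 12 h C1s stood at place 4, Serping1 at 27, C1r at 37 and C3 at 739 in that ranking.

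BRD0476 without cytokines left the members close to the vehicle. At 6 h the difference was 0.16 ± 0.14 for C1r, -0.05 ± 0.13 for C1s and -0.33 ± 0.17 for Serping1, each with overlapping arrays. C3 read 4.25, 4.52 and 4.44 with BRD0476 against 4.05, 3.93 and 4.17, so its arrays did not overlap, at a difference of 0.36 ± 0.12. C3 and 1389470_at were the 2 of 8 with all 3 arrays higher at 6 h, as were 8.51% of all probe sets. At 12 h the differences were 0.17 ± 0.14 for C1r, 0.15 ± 0.13 for C1s, 0.12 ± 0.12 for C3 and -0.03 ± 0.17 for Serping1. Only 1389470_at had all 3 arrays lower at that time (13.1% of all), at -0.21 ± 0.12.

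Across the 8 group means, C1r and Serping1 correlated with r = 0.995, C1r and C1s with 0.944 and C1s and Serping1 with 0.953. C3 correlated less closely, with 0.890 to C1r, 0.852 to Serping1 and 0.733 to C1s. These are descriptions over 8 points that share arrays and the same cytokine contrast. Among 603 other genes whose group means spanned at least 2 log2 units, the closest to the averaged members were Aldh4a1 (r = 0.996), Uba7 (0.993), Arhgef16 and Rpap2 (both 0.991), Dll1 (0.990) and Akap12 (0.989). The closest to C1s were Ifitm3 (0.998) and Klrk1 (0.997). Kars1 (0.998) and Unc93b1 (0.997) were closest to C1r, and Tor3a (0.996) and Armc3 (0.995) to Serping1. C3 had less close neighbours, Qrich2 and Tmem176b (both 0.979). The averaged shared probe sets were closest to Scnn1g (0.980) and Zbp1 (0.978).

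The other genes of the complement system, a list of 48 of which 38 had a probe set of their own, were called in both directions. With cytokines in DMSO, 4 were called higher and 8 lower at 6 h (31.6% of 38, beside 51.7% of all 14217 genes), with a median difference of 0.03 beside 0.00 over all genes. At 12 h 7 were called higher and 6 lower (beside 45.9% of all genes). These calls are from limma with p adjusted over all genes by Benjamini and Hochberg. By role, 1 of 13 initiation genes was called higher and 3 lower at 6 h, 2 of 11 regulators higher and 4 lower, 1 of 6 terminal genes lower and 1 of 8 receptors higher.

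Among the initiation genes, C1qa, a chain of the C1q that carries C1r and C1s, fell from 6.97 ± 0.22 to 5.72 ± 0.21 (SD, n = 3) with cytokines at 6 h, a difference of -1.25 ± 0.12 (limma adjusted p = 1.27e-08), and by 0.87 ± 0.12 at 12 h (3.23e-06). Masp2, the protease that does for the lectin pathway what C1s does for the classical one, fell by 1.82 ± 0.13 at 6 h (limma adjusted p = 1.12e-10), in 2 of its 3 probe sets. Colec12, a collectin on cell surfaces, rose from 4.19 ± 0.23 to 5.59 ± 0.08, by 1.40 ± 0.17 (4.53e-07), and by 2.08 ± 0.17 at 12 h (1.76e-09). Fcnb, a ficolin that also starts the lectin pathway, rose by 0.51 at 12 h (0.0024), from 3.74, a level under the lower quartile of all values. So the protease pair C1r and C1s was high with cytokines while the C1qa chain was lower. C1qb and C1qc, given here as the other C1q chains, were not called at either time. At 6 h C1qb read 3.54 untreated and 3.61 with cytokines (limma adjusted p = 0.741), under the lower quartile of all values. C1qc read 4.52 and 4.21 (0.0701). The probe set shared by C4a and C4b, looked at after the others, rose by 0.30 ± 0.11 at 6 h (limma p adjusted over all probe sets = 0.0272), and its difference at 12 h was -0.09 ± 0.11 (0.561).

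Among the regulators, Cd55, which speeds the decay of C3 convertases on the cell surface, fell by 1.64 ± 0.08 at 6 h (limma adjusted p = 3.88e-13) and by 1.07 at 12 h (5.54e-10). Cpn1, the catalytic chain of the carboxypeptidase that trims anaphylatoxins, fell by 2.02 ± 0.07 (2.68e-15) and by 1.67 (7.69e-14). Clu, clusterin, which binds terminal complexes, rose by 0.81 ± 0.10 (3.47e-07) and by 0.49 (0.000273). Cr1l, a membrane regulator of C3 convertases in rodents, rose by 0.66 at 12 h (1.51e-08). At 6 h its brighter probe set rose by 0.23 ± 0.06 (0.00311), but its other probe set did not move that way, and their mean gave 0.03 (0.771). C8g, a chain of the terminal component C8, fell by 0.80 at 12 h (4.64e-07). Itgb2, a chain of complement receptors 3 and 4, rose by 0.20 ± 0.07 at 6 h (0.0228), a call lost without untreated DMSO array 1 or 2 or cytokine DMSO array 3 (adjusted p up to 0.161).

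BRD0476 given with the cytokines raised 7 and lowered 2 of the 38 at 6 h (23.7%, beside 44.0% of all genes) and raised 5 and lowered 3 at 12 h (beside 26.9%). With arrays centred on their medians the split at 12 h was 2 higher and 3 lower, and without BRD0476 array 1 it was 5 calls in all. Cpn1 rose by 1.40 at 6 h (limma adjusted p = 3.57e-12) and by 0.65 at 12 h (7.25e-07). Masp2 rose by 1.27 at 6 h (5.76e-08), in 1 of 3 probe sets. Cd55 rose by 0.76 at 6 h (1.29e-07). Cr1l fell by 0.34 at 6 h (0.000117), in 1 of 2 probe sets and with 0.465 when they were averaged, and by 0.72 at 12 h (1.23e-08). C9, the pore-forming terminal component, fell by 0.52 (0.00291) and C4bpb, a chain of the C4b-binding protein, by 0.37 (0.0037) at 12 h. Some smaller calls were lost when 1 of the 6 arrays was left out. At 6 h these were C1qa (0.33, adjusted p 0.0308, lost without array 1 or 2 of either group, up to 0.174) and Cfi, the protease factor I (-0.31, 0.0277, lost without any of 5 of the 6 arrays, up to 0.086). At 12 h they were Cd55 (0.24, 0.0326, lost without DMSO array 1 or 2 or BRD0476 array 1, up to 0.178), Cfp, properdin (0.28, 0.0302, lost without DMSO array 1 or BRD0476 array 1 or 2, up to 0.128), and C8g (0.35, 0.00819, lost without BRD0476 array 2, 0.0522). The 12 h difference of Cd55 also turned on the probe sets, since 1 of its 2 went that way. Cfi at 6 h read 3.48 with cytokines and 3.17 with BRD0476 added, both under the lower quartile of all values.

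**Figure D4:**
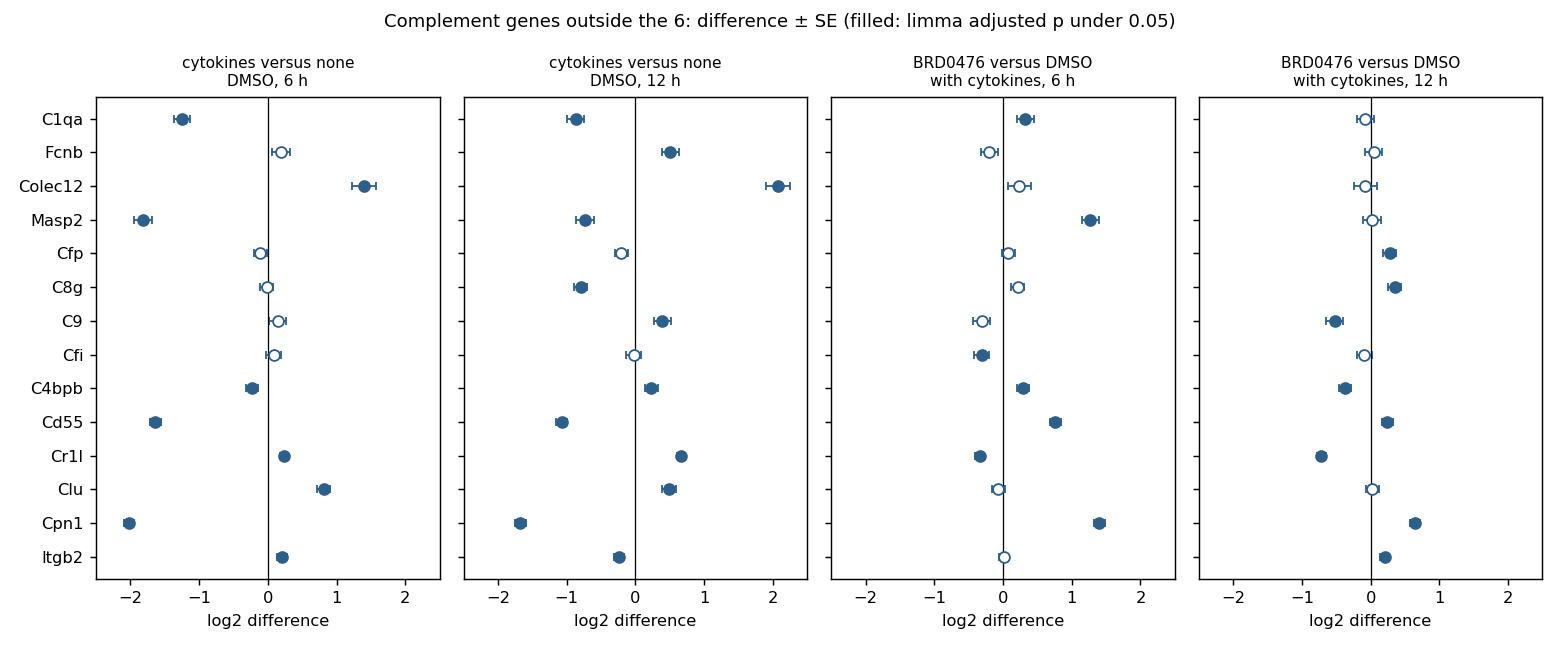
Log2 difference of 14 other complement genes in 4 comparisons, cytokines against none in DMSO and BRD0476 against DMSO with cytokines, at 6 and 12 h. Filled points have a limma adjusted p under 0.05, and bars are the SE of the limma fit. With cytokines Colec12 lies furthest to the right (2.08 at 12 h) and Cpn1 furthest to the left (-2.02 at 6 h).

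Without cytokines BRD0476 moved few of the 38, with 1 called higher and 1 lower at 6 h (beside 3.53% of all genes) and 1 higher and 2 lower at 12 h (beside 4.66%). Cd55 fell by 0.50 at 12 h (limma adjusted p = 0.000557). Its difference of -0.34 at 6 h (0.0215) was lost without array 1 or 2 of either group (up to 0.106), and that of Clu (0.44, 0.0118) without DMSO array 2 (0.0528). At 12 h the calls of Clu (0.34, 0.0438) and Masp2 (-0.48, 0.0339) were each lost without any 1 of the 6 arrays (up to 0.228 and 0.149).

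Genes that flank the members on GRCr8 were looked at after the values were seen. Ube2l6, which encodes a ubiquitin-conjugating enzyme that acts with ISG15 and lies next to Serping1, rose by 2.55 ± 0.06 at 6 h (limma adjusted p = 8.35e-19) and by 2.49 at 12 h (1.08e-18), and fell with BRD0476 in cytokine-treated cells by 0.73 (1.23e-09) and by 0.89 (1.18e-10). Ypel4, on the other side, fell by 0.65 at 6 h (1.61e-05). Lpcat3, next to C1s, fell by 0.30 at 6 h (0.00335). Gpr108, next to C3, differed by 0.09 at 6 h (0.312) and fell by 0.28 at 12 h (0.00195). Nelfe, next to Cfb, differed by -0.18 (0.068) and Zbtb12, next to C2, by -0.02 (0.921) at 6 h. With BRD0476 in cytokine-treated cells at 6 h, Lpcat3 rose by 0.68 (limma adjusted p = 5.69e-07), Nelfe by 0.33 (0.00145) and Gpr108 by 0.18 (0.0308). Ypel4 fell by 0.29 (0.0255), and Zbtb12 differed by -0.13 (0.388). C1rl, next to C1r, and Tnfsf14, next to C3, were not measured. Of the flanking genes named here, Ube2l6 was the 1 that rose with cytokines at 6 h and fell with BRD0476 at both times. The Serping1 levels differed in the same directions. The share of all genes with this pattern is not given here.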

How the data were processed

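Expression was measured on 24 arrays, 3 in each of 8 groups. The authors deposited 1 table of linear intensity per probe set, made with RMA per the submitters' processing notes, a method that subtracts background, equalizes the arrays and combines the probes of a set. Its version, and how its log2 output became linear values, are not given in the sources used here. RMA compresses differences at low intensity, so folds from low levels are likely understated.

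The intensity values, from 5.19 to 24852.9, were taken to log2 without further normalization. Probe sets were named through the platform annotation of 21268 probe sets, 20832 with 1 symbol and 436 with several, while 9831 have none. Probe sets with several symbols name no gene alone. Setting aside 57 controls left 31042 probe sets and 14217 genes, each gene by its brightest probe set (4526 genes had several). The listed Cd59 was measured as Cd59b. Itgam was in both the complement and the marker list.

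The fit used limma 3.58.1 under R 4.3.3, with 1 mean for each of 8 groups, 16 residual and 3.97 prior degrees of freedom for genes (4.63 for probe sets), eBayes, and Benjamini-Hochberg adjustment over all genes. Calls required an adjusted p under 0.05. Each SE of a difference is the moderated SE of this fit, with the spread pooled over the 8 groups. With 3 arrays against 3 an exact test cannot go below 0.1, and 3 arrays a group limit the precision. The fit was tested on simulated data. The members and lists were chosen with earlier results of these data known, so members have no p-value. Named besides the members were, in each comparison, up to 4 other complement genes called higher and up to 4 called lower with the largest difference, and the genes closest in profile over the 8 group means. The member profile averaged 6 scaled profiles, with the shared probe sets standing for both Cfb and C2. Alternatives were the replicate number as a block, only the 6 arrays compared, a robust prior with an intensity trend, averaged probe sets per gene, a filter on 1768 dim genes, arrays centred on their medians, quantile normalization, and omission of single arrays.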

Additional observations from a re-analysis of the deposited data

Results flagged for a closer look

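Interaction terms (12 h minus 6 h, log2) came from the same limma fit, with p adjusted over all genes. On the other complement genes 16 of 114 terms had an adjusted p under 0.05, none of them for BRD0476 without cytokines. The share of all genes that passed is not given here, so this count says nothing of the list. These terms were added after the levels had been seen, for all 38 measured genes and 3 treatments. Cd59b and Itgax fall outside the rule for named genes and are given because their terms passed. The members were not tested.

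For the cytokines in DMSO, the fall of Masp2 was smaller at 12 h by 1.09 ± 0.18 (adjusted p = 9.61e-05), that of Cd55 by 0.57 ± 0.12 (0.000705) and that of Cpn1 by 0.35 ± 0.11 (0.0154). The rise of Colec12 was larger at 12 h by 0.68 ± 0.24 (0.0387) and that of Cr1l by 0.43 ± 0.09 (0.00078). C4bpb went from -0.23 to 0.23, an interaction of 0.46 ± 0.13 (0.00939). C8g went from -0.02 to -0.80 (-0.78 ± 0.13, 0.000129) and Itgb2 from 0.20 to -0.24 (-0.44 ± 0.10, 0.00198). Cd59b went from -0.79 to 0.14 (0.93 ± 0.12, 4.03e-06) and Itgax from -0.12 to 0.36 (0.48 ± 0.14, 0.0144).

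For BRD0476 with cytokines, the rise of Masp2 went from 1.27 to 0.02 (-1.25 ± 0.18, 3.1e-05), that of Cpn1 from 1.40 to 0.65 (-0.75 ± 0.11, 2.05e-05) and that of Cd55 from 0.76 to 0.24 (-0.52 ± 0.12, 0.00194). C4bpb went from 0.29 to -0.37 (-0.66 ± 0.13, 0.000629) and Cd59b from 0.25 to -0.16 (-0.42 ± 0.12, 0.0121). The fall of Cr1l was larger at 12 h, with an interaction of -0.38 ± 0.09 (0.00307). Both sets of terms share the cytokine DMSO arrays. They rest on the brightest probe set of each gene. As given above, the probe sets of Masp2, Cd55 and Cr1l did not all move the same way.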

How the results depend on the processing

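Of 462 recomputed member differences 12 changed sign, 11 of them for BRD0476 without cytokines and 1 for cytokines at 6 h, the shared probe set 1393219_at, and each had a size of 0.16 or less with all arrays. The cytokine differences of C1r, C1s, C3 and Serping1, and their differences with BRD0476 under cytokines, kept their sign. Recomputed member differences moved by less than the spread between arrays in 460 cases and by more in 2, those of 1393219_at without cytokine DMSO array 1 at 6 h, -0.07 for cytokines and -0.05 for BRD0476 with cytokines.

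With only the 6 arrays compared, the genes called for BRD0476 with cytokines at 12 h were 2379 instead of 3827 and the other complement genes 5 instead of 8. For BRD0476 without cytokines at 6 h they were 108 instead of 502 and 1 instead of 2. For BRD0476 without cytokines at 12 h they rose from 663 to 923 and from 3 to 4. The cause was not tested. With arrays centred, 5 other complement genes were called for BRD0476 with cytokines at 12 h, again with the cause not tested.

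Leaving out 1 array at a time gave 286 to 399 genes for BRD0476 without cytokines at 6 h (502 with all arrays) and 360 to 431 at 12 h (663). For other complement genes it gave 0 to 2 at 6 h (2) and 1 in each of the 6 fits at 12 h (3), and 5 to 8 (8) for BRD0476 with cytokines at 12 h. The 0 came without untreated DMSO array 2, where 8 of 38 had an unadjusted limma p under 0.05.

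Whether replicate numbers pair the arrays differed between comparisons. The correlation of same-numbered arrays was -0.348 to 0.179, over 0.1 in 6 of 18 pairs. Arrays closest to their own number were 6 of 6 for cytokines at 6 h in DMSO and 5 of 6 for BRD0476 with cytokines at 6 h. In the other comparisons they were 0 to 2 of 6. With the replicate block 7308 genes were called for cytokines at 6 h in DMSO (7345 without it). For BRD0476 with cytokines 6214 (6261) were called at 6 h and 3752 (3827) at 12 h. Recomputed differences of named other complement genes kept their call in 388 cases and lost it in 53. Low signal limits C1s, C3 and the shared probe sets in untreated cells, and also the readings of Fcnb, Cfi and Itgax.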
